A study of Homo sapiens with 6 samples.

Results

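The genes described here carry the output of the Hippo pathway: the co-activators YAP and TAZ (genes YAP1 and WWTR1), the DNA-binding factors TEAD1 and TEAD4, and 6 genes that YAP, TAZ and TEAD are known to activate, namely CCN1, CCN2, ANKRD1, AXL, AMOTL2 and LATS2. The 10 members were listed by name and matched by Ensembl identifier, and all 10 were found among the 60671 annotated genes of the expression matrix. Their RNA was measured in bulk by RNA-seq in xenografts of MDA-MB-231 (WT), a breast cancer line of human origin without hormone receptors or HER2 amplification, which had been injected orthotopically into the mammary fat pads of female NSG mice, an immunodeficient strain, aged 6 to 8 weeks. Tissue of the tumor core (TC) was compared with tissue of the tumor margin (TM), with 3 samples of each. No other allele or agent was given in the labels of either zone, both zones came from the same cell line, and the question was which genes differ between the poorly supplied core and the margin. The tissue still held cells of the mouse host, and no step that parts mouse from human reads was described, so the values are those of tumor pieces and not of sorted cancer cells.

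YAP and TAZ shuttle between cytoplasm and nucleus. When the kinases LATS1 and LATS2 are active, they phosphorylate YAP and TAZ, which are then held in the cytoplasm or degraded; when the kinases are inactive, for instance in spread cells on a stiff matrix, YAP and TAZ enter the nucleus, bind a TEAD protein and activate transcription. In breast cancer cells this pathway is known for its part in growth, invasion and the response to mechanical force. Because much of the control acts on the proteins, RNA levels of YAP1 and WWTR1 do not measure their activity, and RNA of target genes such as CCN1, CCN2 and ANKRD1 is commonly used as a readout.

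TEAD proteins recognise the DNA motif CATTCC, which reads GGAATG on the other strand. The 250 bases before each RefSeq start site (GRCh38.p14) were searched for it on both strands, and 7 of the 10 members were matched in that table; CCN1, TEAD1 and TEAD4 were not analysed here. Of these 7 genes, 5 held the motif in at least 1 of their windows (YAP1, CCN2, ANKRD1, AXL and AMOTL2), whereas WWTR1 and LATS2 did not hold these letters in the windows searched (2 for WWTR1 and 1 for LATS2). Counted by window, 5 of the 10 windows of these members held it. Among all 35116 windows of the same length, 11.9% held the motif at least once, 0.94% held it 2 or more times, and 0.0826% (29 windows) held it 3 or more times. Counted by gene, 4 of 11 matched genes of the other targets described below and 4 of 18 of the upstream Hippo genes held it. The CCN2 window was among the 29 windows with 3 or more copies. Its copies begin 169, 104 and 95 bases before the start, all on the same strand, and the nearer pair was separated by 3 bases. ANKRD1 held 2 copies, at 220 and 128 bases before its start, and YAP1, AXL and AMOTL2 held 1 each. The whole CCN2 window (chr6:131951373-131951622, minus strand) is given because it is the densest, with short stretches around the motif for the other genes, 5′ to 3′ along the gene and with the motif in capitals.
CCN2: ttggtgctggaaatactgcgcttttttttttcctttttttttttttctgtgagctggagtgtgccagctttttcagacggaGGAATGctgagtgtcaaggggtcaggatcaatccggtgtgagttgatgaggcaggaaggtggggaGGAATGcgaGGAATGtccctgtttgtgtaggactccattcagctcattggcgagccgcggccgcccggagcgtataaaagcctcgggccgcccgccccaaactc
ANKRD1, farther copy (chr10:90921292-90921317, minus strand): caccaccaaaGGAATGgccctctcac
ANKRD1, nearer copy (chr10:90921200-90921225, minus strand): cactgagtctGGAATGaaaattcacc
YAP1 (chr11:102110275-102110300, plus strand): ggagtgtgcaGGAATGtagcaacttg
AXL, second start site (chr19:41226533-41226558, plus strand): gactttgcacCATTCCactccctccg
AMOTL2, second start site (chr3:134374501-134374526, minus strand): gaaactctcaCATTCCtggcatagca
A match to these letters is a description of the sequence, and binding at these places was not measured. Part of the ANKRD1 window (189 of 250 bases) and of the second AMOTL2 window (147 of 250 bases), and the whole second WWTR1 window (250 bases, against 55 of the first), lay in exons of another annotation, GENCODE v29. The other windows held 0 to 62 such bases.

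Values are TPM, the abundance of a gene's transcripts per unit of length, set so that each sample adds up to 1000000, which keeps no sequencing depth, so that the depth of each sample is unknown. The defining genes of the line were present in all 6 samples (VIM, CD44, EGFR, KRT18 and KRT8), ESR1, PGR and CDH1 were at or below 0.36 TPM, and EPCAM lay between 3.66 and 6.02 TPM. One library stood apart: TM replicate 3 summed to 994381 TPM, held 21.1 TPM in loci assembled outside the annotation against 1573.7 to 2643 in the other 5, and had the lowest summed TPM of skeletal muscle markers (3.37), against 198.5 and 537 in TM replicates 1 and 2 and 4.61 to 8.4 in TC. Of 13861 genes tested with limma on log2(TPM + 1), 0.137% (19) were called at an adjusted p-value under 0.05, 16.2% had an unadjusted p under 0.05 (14.2% lower and 1.93% higher in TC), and 22.2% had zones that did not overlap (18.9% lower and 3.28% higher in TC). The median difference over all tested genes was -0.136 (TC minus TM, log2), and it was 0.02 after median-of-ratios rescaling and 0.01 after quantile normalization, and the value of a single gene is best read against this common shift.

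None of the 10 members was called: all 10 passed the filter on low values, 0 were called by limma at an adjusted p under 0.05, 0 had zones that did not overlap, and 1, AMOTL2, had an unadjusted p under 0.05, beside the 16.2% of all genes. In 8 members the fitted value was lower in TC and in 2 (WWTR1 and ANKRD1) it was higher. Of all 13861 tested genes, 9283 were lower and 4578 higher in TC. The median over the 10 members was -0.17, beside -0.136 over all tested genes. In bulk tissue, fewer cells of a type and less RNA per cell cannot be told apart, which holds for every level given here.

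The members spanned more than 2 orders of magnitude in TPM, a scale corrected for length. CCN1 had the highest mean over the 6 samples (1405 TPM, rank 123 of 13861 tested genes), followed by CCN2 (312 TPM, rank 417), AXL (163 TPM), WWTR1 (85.3 TPM), AMOTL2 (52.2 TPM), YAP1 (38.2 TPM), TEAD4 (24.5 TPM), TEAD1 (19.7 TPM), LATS2 (11.2 TPM) and ANKRD1 (8.14 TPM). The range of CCN1 over the samples did not overlap with that of CCN2, nor did the range of AXL with that of WWTR1. All other neighbours in this order had overlapping ranges, although CCN2 exceeded AXL, TEAD1 exceeded LATS2 and LATS2 exceeded ANKRD1 within each of the 6 samples. The secreted targets thus were among the most abundant RNAs, whereas ANKRD1, another gene used as a readout, was the least abundant member in mean TPM.

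**Figure D1:**
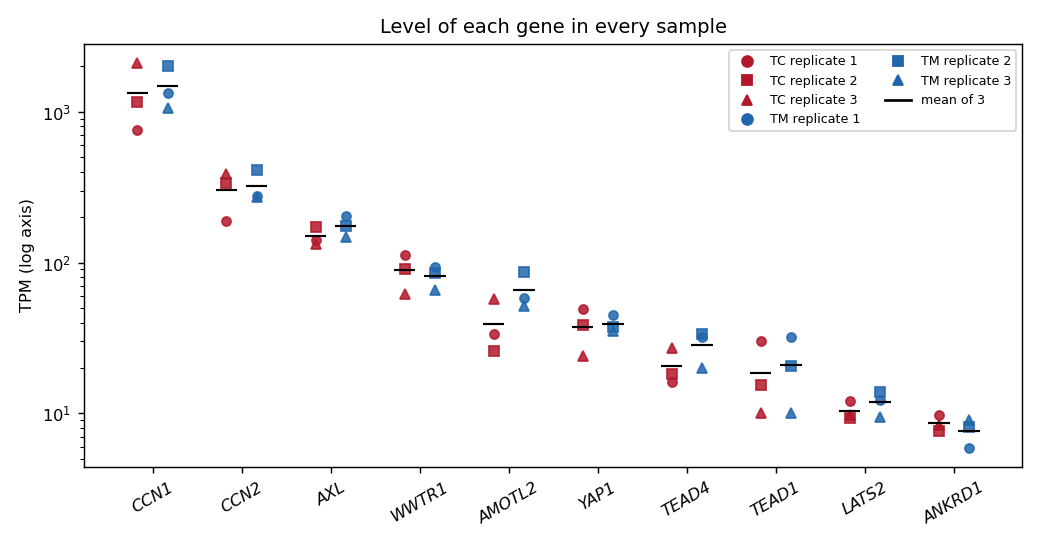
TPM of each gene (log axis) in the 3 TC samples (red) and 3 TM samples (blue), with the symbol marking the replicate and the bar the mean of 3. TC and TM points overlap for all 10 genes, and CCN1 lies between 758 and 2096 TPM.

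YAP1 (ENSG00000137693, chr11:102110461-102233423) encodes YAP, a co-activator that does not bind DNA by itself. Its level was 49.4, 38.6 and 24.0 TPM in TC replicates 1 to 3 and 44.96, 37.1 and 35.2 TPM in TM. TC replicate 1 was the highest and TC replicate 3 the lowest of all 6, so that TM lay inside the span of TC. The means were 37.3 ± 12.7 TPM in TC and 39.1 ± 5.16 TPM in TM (SD, n = 3), and the log2 difference was -0.12 (SE 0.25, 95% interval -0.69 to 0.46, limma adjusted p = 0.873). Its sign turned to 0.06 after median-of-ratios rescaling and to 0.16 without TC replicate 3.

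WWTR1 (ENSG00000018408, chr3:149517235-149736714) encodes TAZ, the paralog of YAP. It was at 113, 91.1 and 62.1 TPM in TC and 93.9, 85.9 and 65.8 TPM in TM. As with YAP1, the extremes were TC replicates 1 and 3 and the zones overlapped. Between zones the log2 difference was 0.09 (SE 0.23, 95% interval -0.44 to 0.62, limma adjusted p = 0.896), and it was -0.11 without TC replicate 1 and -0.06 without TM replicate 3. WWTR1 RNA exceeded YAP1 RNA in every sample: the ratio of their TPM was 2.29, 2.36 and 2.58 for the TC samples and 2.09, 2.31 and 1.87 for the TM samples. The ratio overlapped between zones (two-sided exact permutation test, p = 0.2, the smallest possible being 0.1). Summed, both co-activators reached 126 ± 38.3 TPM in TC and 121 ± 19 TPM in TM (SD, n = 3).

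TEAD1 (ENSG00000187079, chr11:12674591-12944483) is a transcription factor of the family that brings YAP and TAZ to DNA. It had 29.99, 15.4 and 10.1 TPM in TC and 32.1, 20.7 and 10.0 TPM in TM. Replicate 1 was high and replicate 3 low in both zones, a spread of 3.21 times between the highest and the lowest sample that left the zones fully overlapping. The log2 difference was -0.16 with a wide error (SE 0.46, 95% interval -1.23 to 0.90, limma adjusted p = 0.905), and its sign turned to 0.01 after median-of-ratios rescaling and to 0.04 after quantile normalization, and it was 0.18 without TC replicate 3 and 0.20 without TM replicate 1.

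TEAD4 (ENSG00000197905, chr12:2959330-3040673), the other member of the factor family, was at 16.1, 18.2 and 27.4 TPM in TC and 31.9, 33.6 and 19.96 TPM in TM. TM replicates 1 and 2 were above all TC samples, whereas TM replicate 3 was below TC replicate 3. The log2 difference was -0.45 (SE 0.26, 95% interval -1.05 to 0.15, limma adjusted p = 0.457). Without TM replicate 3 the zones did not overlap, which held for 37.1% of all tested genes. The difference was then -0.68 (limma unadjusted p = 0.0191, adjusted p = 0.174), and 19.2% of all genes had an unadjusted p under 0.05. Without TC replicate 3 the difference was -0.67 (limma unadjusted p = 0.034), where 11.8% of all genes had an unadjusted p under 0.05. With TM replicate 3 as the sole TM sample the difference was 0.005.

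The balance between the TEAD genes varied among samples more than between zones. The ratio of TEAD4 to TEAD1 TPM was 0.538, 1.18 and 2.7 for the TC samples and 0.992, 1.62 and 1.99 for the TM samples, lowest in replicate 1 and highest in replicate 3 of each zone (two-sided exact permutation test, p = 0.7). TEAD1 supplied 37.2%, 21% and 14.1% of the summed TPM of TEAD1 to TEAD4 in TC and 31%, 22.1% and 14.2% in TM. Its share thus fell within a like span in both zones. TEAD2 supplied 24.2% to 39% and TEAD3 13.9% to 18.5%, so each of the 4 factors had RNA in all samples, and the family sum was 75.2 ± 4.66 TPM in TC and 89.2 ± 17 TPM in TM (SD, n = 3, exact permutation p = 0.4).

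CCN1 (ENSG00000142871, chr1:85580761-85583962), also named CYR61, encodes a secreted matrix protein that binds integrins, and it is an immediate and widely used target of YAP and TEAD. It stood at 758, 1161 and 2096 TPM in TC and 1330, 2024 and 1060 TPM in TM. TC held both the lowest and the highest sample, and the 3 TM samples lay between them. Means were 1338 ± 686 TPM in TC and 1471 ± 497 TPM in TM (SD, n = 3), with a log2 difference of -0.21 (SE 0.37, 95% interval -1.05 to 0.63, limma adjusted p = 0.838). The sign rested on single samples: the difference was 0.14 without TC replicate 1 and 0.05 without TM replicate 2.

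CCN2 (ENSG00000118523, chr6:131948176-131951373), also named CTGF, is a secreted relative of CCN1 tied to fibrosis and matrix deposition, and its window above held the most motif copies. It was at 190, 335 and 384 TPM in TC and 278, 410 and 273 TPM in TM. TC replicate 1 was the lowest and TM replicate 2 the highest, and the other 4 samples were mixed between zones. The log2 difference was -0.12 (SE 0.27, 95% interval -0.74 to 0.51, limma adjusted p = 0.884), and it was 0.06 after median-of-ratios rescaling, 0.19 without TC replicate 1 and 0.08 without TM replicate 2. The ratio of CCN2 to CCN1 was narrow, from 0.183 to 0.288 over the 6 samples (two-sided exact permutation test between zones, p = 0.8).

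ANKRD1 (ENSG00000148677, chr10:90912096-90921276) encodes an ankyrin repeat protein known from stretched heart and skeletal muscle. Its level was 9.73, 7.68 and 8.38 TPM in TC and 5.91, 8.12 and 9.04 TPM in TM. The lowest sample was TM replicate 1, and TM replicate 2 lay inside the TC span. Skeletal muscle markers were high in both of these TM samples, and the part of muscle in the ANKRD1 level was not tested. The log2 difference was 0.16 (SE 0.22, 95% interval -0.35 to 0.66, limma adjusted p = 0.794), and it was -0.001 without TM replicate 1.

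AXL (ENSG00000167601, chr19:41219203-41261766) is a receptor tyrosine kinase linked to invasion and drug resistance. It was at 142, 173 and 133 TPM in TC and 205, 174 and 148 TPM in TM. TM replicate 1 was the highest, and TM replicate 3 fell among the TC samples. TC minus TM gave a log2 difference of -0.23 (SE 0.16, 95% interval -0.60 to 0.14, limma adjusted p = 0.559), the smallest SE among the 10 members.

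AMOTL2 (ENSG00000114019, chr3:134355874-134375479) encodes an angiomotin, a junction protein that binds YAP and restrains it, so this target is a feedback inhibitor. It had 33.5, 25.7 and 57.5 TPM in TC and 58.3, 86.4 and 51.9 TPM in TM. TC replicates 1 and 2 were below all TM samples, while TC replicate 3 exceeded TM replicate 3, so the zones overlapped. Means were 38.9 ± 16.6 TPM in TC and 65.5 ± 18.3 TPM in TM (SD, n = 3), and the log2 difference was -0.78 (SE 0.30, 95% interval -1.47 to -0.09, limma unadjusted p = 0.0313, adjusted p = 0.256). AMOTL2 therefore did not pass the test over all genes, and the exact permutation test on its values gave p = 0.2. The value kept its sign in all 17 alternatives, from -1.10 to -0.40. Those that change only the moderation, the filter or the replicate block leave this difference at -0.78 by design, so their sign was fixed. The unadjusted limma p was above 0.05 in 9 of the 17, among them median-of-ratios rescaling (0.107) and quantile normalization (0.0558). The smallest difference, -0.40, came with the length and GC trend removed (limma unadjusted p = 0.265). With TM replicate 3 as the sole TM sample the difference was -0.485.

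LATS2 (ENSG00000150457, chr13:20973032-21061547) encodes a kinase that inactivates YAP and TAZ, and it too is a feedback target. It was at 12.1, 9.28 and 9.77 TPM in TC and 12.4, 13.9 and 9.43 TPM in TM. One TM sample lay among the lower TC values and one TC sample near the higher TM values. TC minus TM was -0.17 on the log2 scale (SE 0.21, 95% interval -0.66 to 0.31, limma adjusted p = 0.754). LATS2 exceeded its paralog LATS1 in TPM by 1.74 to 2.94 times in the 6 samples.

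**Figure D2:**
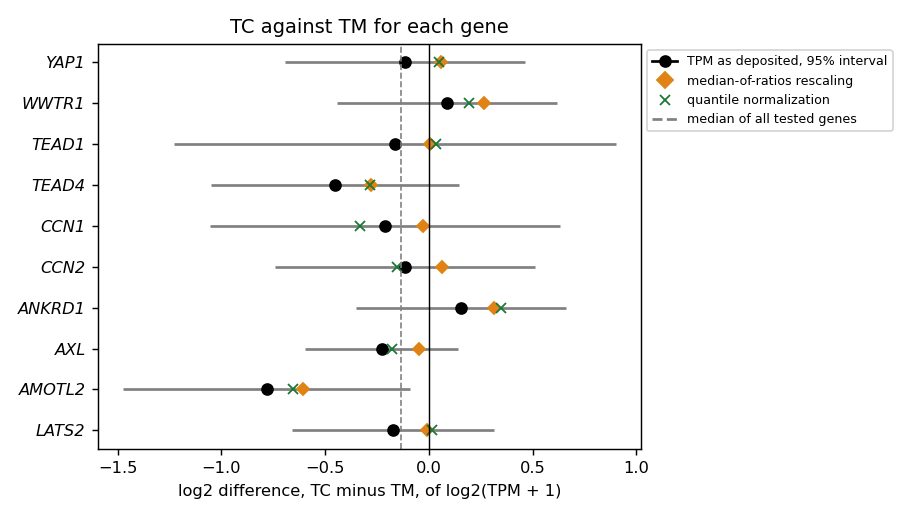
Log2 difference, TC minus TM, of log2(TPM + 1) for each gene (black, with the 95% interval from limma), beside the same after median-of-ratios rescaling (orange) and quantile normalization (green); the dashed line is the median of all tested genes, -0.136. Only the interval of AMOTL2 (-1.47 to -0.09) lies to the left of 0, and YAP1 and TEAD1 change sign with both scalings, CCN2 with the former and LATS2 with the latter.

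The members fell into unlike patterns over the samples rather than into 1 common pattern of high and low. YAP1 and WWTR1 had the same order over all 6 samples (Pearson r = 0.896, permutation p = 0.0167; Spearman rho = 1, permutation p = 0.00278), and r was 0.759 without the 2 samples farthest from the median of YAP1. CCN1 and CCN2 rose and fell together (r = 0.922, permutation p = 0.00833; rho = 0.886, permutation p = 0.0333), with r = 0.82 without the 2 farthest samples and r = 0.92 after the mean of each zone was removed. TEAD4 was alike to AMOTL2 (r = 0.866, rho = 0.943, permutation p = 0.0153 and 0.0167; r = 0.763 without the 2 farthest). TEAD1 went with YAP1 (r = 0.832, permutation p = 0.0236) and WWTR1 (r = 0.895, permutation p = 0.0333), with r = 0.888 and 0.57 without the 2 farthest. ANKRD1 ran against AXL (r = -0.858, permutation p = 0.0278, and r = -0.621 without the 2 farthest). In all, 6 pairs had an unadjusted permutation p of r under 0.05. Over the 45 pairs of members, no correlation passed adjustment (smallest Benjamini-Hochberg adjusted permutation p = 0.25 for r and 0.125 for rho). For YAP1 the values ran the other way from CCN1 (r = -0.718, rho = -0.6, permutation p = 0.0986 and 0.242) and CCN2 (r = -0.697, rho = -0.543, permutation p = 0.125 and 0.297), with an adjusted permutation p of 0.511 for each r. Without the 2 farthest samples, TC replicates 1 and 3, r was 0.05 for CCN1 and -0.28 for CCN2. WWTR1 had r = -0.564 with CCN1 and -0.566 with CCN2 (rho = -0.6 and -0.543, permutation p = 0.235 and 0.237 for r, 0.242 and 0.297 for rho, adjusted p = 0.629 for each r), and r was -0.922 and -0.98 without its 2 farthest samples, TC and TM replicates 3. Among the other targets, AMOTL2 and ANKRD1 shared this sign at a smaller size. For YAP1 their r was -0.319 and -0.136, and for WWTR1 it was -0.396 and -0.108 (permutation p from 0.449 to 0.86). Without the 2 farthest samples these were -0.01 and -0.999 for YAP1 and -0.5 and 0.531 for WWTR1. AXL and LATS2 did not share the sign. Their r was 0.499 for YAP1 with AXL, 0.484 for YAP1 with LATS2, 0.409 for WWTR1 with AXL and 0.55 for WWTR1 with LATS2 (rho from 0.257 to 0.371, permutation p from 0.26 to 0.424 for r and from 0.497 to 0.658 for rho). Without the 2 farthest samples the r with AXL and LATS2 were 0.953, 0.354, -0.69 and -0.04. Their size and, for WWTR1, their sign thus depended on the 2 samples left out.

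**Figure D3:**
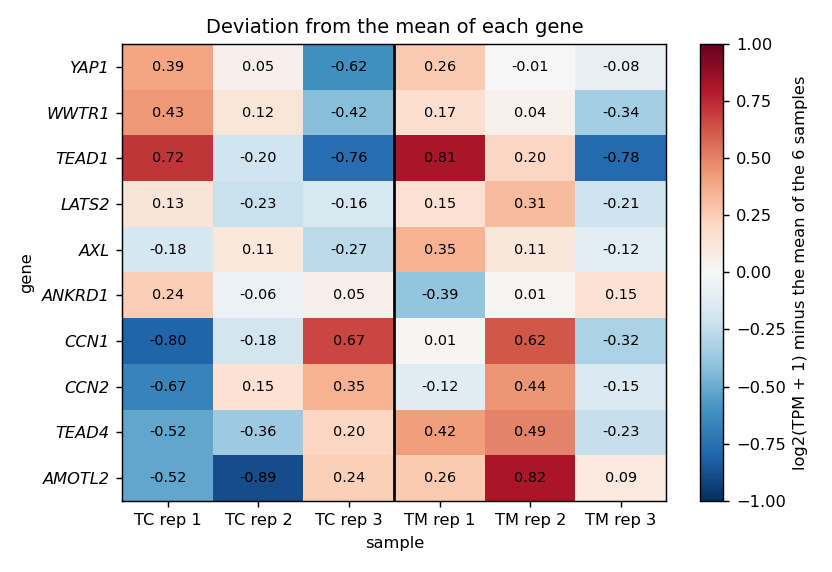
Deviation of log2(TPM + 1) from the mean of the 6 samples, by gene (rows) and sample (columns), from red (above the mean) to blue (below). TC replicate 1 is high for YAP1 (0.39) and WWTR1 (0.43) and low for CCN1 (-0.80) and CCN2 (-0.67), and TC replicate 3 shows the opposite signs.

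Transcript length moved with part of this pattern. The median deviation of the 3443 tested genes with the longest transcripts (at least 5109 bases) minus that of the 3444 with the shortest (up to 2027 bases) came to 0.15, -0.10 and -0.36 for the TC samples and to 0.18, 0.05 and 0.03 for the TM samples, on the log2 scale. Over the 6 samples this measure correlated with YAP1 (r = 0.919), TEAD1 (r = 0.771) and WWTR1 (r = 0.701), whose longest transcripts have 5398, 8477 and 5030 bases. It correlated inversely with CCN1 (r = -0.561, 2290 bases) and CCN2 (r = -0.605, 2339 bases). LATS2 (5511 bases) and AXL (4737 bases) had r = 0.61 and 0.541. For AMOTL2 (4521 bases), ANKRD1 (1979 bases) and TEAD4 (1690 bases) r was 0.033, -0.184 and -0.0477, so r did not follow length in every member. These r values describe 6 samples that share library and scaling, and the part of this measure in the pattern was not tested.

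The genes with the profiles closest to CCN1 and CCN2 over the 6 samples were not of this pathway. For CCN1 they were GTF2IRD1 (r = 0.994), TNIP2 (r = 0.99) and AGTRAP (r = 0.987), and 25 genes reached r of at least 0.95. For CCN2 they were DCXR (r = 0.982), SIL1 (r = 0.97) and CD320 (r = 0.967), and 6 genes reached that level. These are the highest r picked from 13861 tested genes over only 6 samples. Values and counts of this size can arise by chance, and no p was computed for them. GTF2IRD1 spanned only 22.4 to 29.2 TPM where CCN1 spanned 758 to 2096 TPM, so likeness of profile did not mean likeness of size.

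CCN1 and CCN2 are also made by fibroblasts, pericytes and smooth muscle, and markers of these cells differed among the samples. The host is mouse, but the values are for human genes from reads aligned to hg38. Host RNA is therefore seen only where mouse reads match human sequence, and these sums do not measure host cell content. The 10 fibroblast markers together reached 66.3, 124 and 226 TPM in the TC samples and 479, 1007 and 91.5 TPM in the TM samples, with 4 to 7 of the 10 above 1 TPM. It came mostly from COL1A1, while PDGFRA, LUM and THY1 stayed below 1 TPM in every sample and DCN was at 0 in all but TM replicate 1 (4.82 TPM). The 6 pericyte and smooth muscle markers summed to 86.4, 88.3 and 115 TPM in TC and 358, 513 and 108 TPM in TM, led by ACTA2 and TAGLN, with MYH11 below 1 TPM. DES, which skeletal muscle also expresses, gave 75.7 and 153 TPM of this sum in TM replicates 1 and 2 and 3.03 to 4.12 TPM in the other samples. Within each zone, CCN1, CCN2 and TEAD4 ranked the samples in the same order as the fibroblast sum and as the pericyte sum. Over all 6 samples TEAD4 kept the order of the pericyte sum. For CCN1 the order did not hold between zones: TC replicate 3 had the highest CCN1 with 226 TPM of fibroblast markers, below the 479 of TM replicate 1, whose CCN1 was lower. The part of such cells in these levels was not tested.

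**Figure D4:**
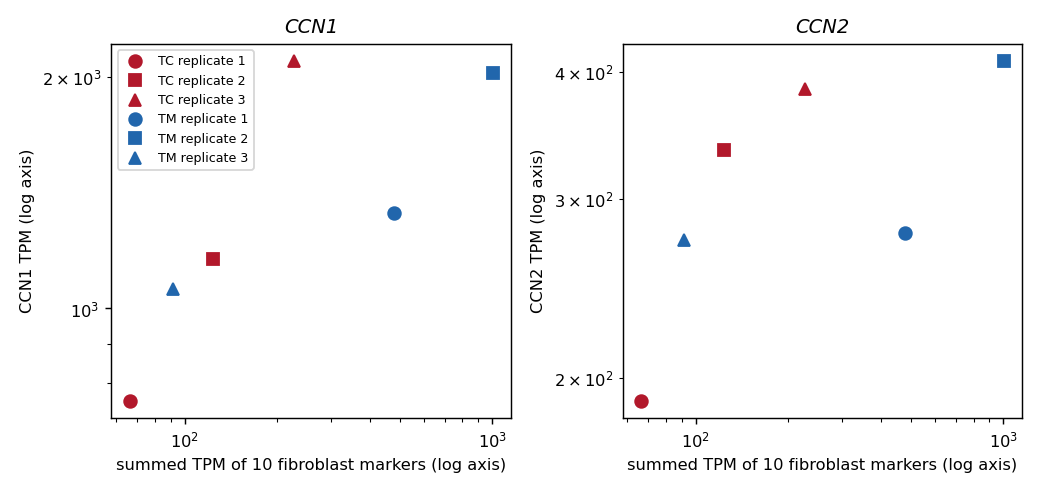
TPM of CCN1 (left) and CCN2 (right) against the summed TPM of the fibroblast markers in each sample, on log axes, with TC in red, TM in blue and the symbol marking the replicate. Within each zone both genes rise with the marker sum, and TC replicate 3 has a CCN1 level (2096 TPM) near that of TM replicate 2 (2024 TPM) at a lower marker sum (226 against 1007 TPM).

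Of the markers of other host cells, 9 endothelial genes summed to 28.95 to 34.6 TPM in TC and 31.5 to 44.4 TPM in TM, with EMCN at 0 throughout. Most of this sum came from ESAM (23.2 to 35.6 TPM), and 2 to 4 of the 9 were above 1 TPM. The 8 macrophage genes summed to 11.4 to 16.6 TPM in TC and 15.0 to 28.3 TPM in TM, with 2 to 4 of the 8 above 1 TPM. ADGRE1 gave 7.92 to 10.5 TPM of this sum, while PTPRC was at most 0.3 TPM and CD163 at most 0.02 TPM. The 6 adipocyte genes summed to 0.44 to 1.09 TPM, with ADIPOQ and LEP at 0. With alignment to the human genome only, a value at or near 0 does not show that a mouse cell type was absent. Of 16 muscle genes 15 were matched, and 12 were above 1 TPM in TM replicates 1 and 2 against 1 or 2 in the other samples. The samples rich in muscle markers, TM replicates 1 and 2, were also those with the highest TEAD4, and AMOTL2 was highest in the same pair; the part of muscle in these levels was not tested.

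Other genes of the pathway were followed in lists of 48 genes in all, of which 41 could be tested and 0 were called. Of these 41 genes, 3 had an unadjusted limma p under 0.05, all lower in TC, and 5 had zones that did not overlap, also all lower in TC, beside 14.2% and 18.9% of all tested genes. The median over the 41 was -0.14, next to -0.136 over all genes.

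Upstream Hippo genes, the kinases and scaffolds that act on YAP and TAZ, gave 20 of 20 tested, with 2 at an unadjusted p under 0.05 and a list median of -0.14. NF2, a membrane scaffold (merlin) that recruits LATS kinases, was at 6.83, 7.57 and 7.12 TPM in TC and 14.9, 12.7 and 14.5 TPM in TM. All TM samples exceeded all TC samples, and the log2 difference was -0.88 (SE 0.18, limma unadjusted p = 0.00111, adjusted p = 0.0843). TAOK2, a kinase that activates the Hippo kinases, was at 12.6, 11.9 and 11.3 TPM in TC and 23.3, 17.9 and 21.7 TPM in TM. Its zones did not overlap either, with a log2 difference of -0.76 (SE 0.17, limma unadjusted p = 0.0022, adjusted p = 0.0972). After the trend with transcript length and GC content was removed, NF2 was at -0.46 (unadjusted p = 0.0163) and TAOK2 at -0.29 (unadjusted p = 0.0751) in the limma fit. FRMD6, a scaffold and the most abundant gene of the list, lay between 71.7 and 121 TPM, with TC minus TM at 0.03 on the log2 scale (SE 0.20, limma adjusted p = 0.963).

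Among 16 other target genes, all tested, the list median was -0.15 and 1 had an unadjusted p under 0.05. ARHGEF17 was at 8.08, 7.05 and 4.17 TPM in TC and 10.5, 12.1 and 16.0 TPM in TM. The zones did not overlap, and the log2 difference was -0.92 (SE 0.27, limma unadjusted p = 0.00917, adjusted p = 0.153). After the trend with length and GC content was removed it was -0.38 (limma unadjusted p = 0.115). NT5E, the ecto-5′-nucleotidase CD73 and the most abundant of this list, was at 631, 506 and 424 TPM in TC and 489, 420 and 458 TPM in TM. Its zones overlapped, with TC minus TM at 0.17 on the log2 scale (SE 0.16, limma adjusted p = 0.659).

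Of the remaining TEAD and VGLL genes 3 of 6 were tested and 0 had an unadjusted p under 0.05. VGLL4, which competes with YAP for TEAD, was the most abundant, at 59.2, 59.7 and 37.2 TPM in TC and 45.3, 47.9 and 70.5 TPM in TM, and VGLL1 and VGLL2 were listed at 0 in every sample. The zones of VGLL4 overlapped (log2 difference -0.07, SE 0.24, limma adjusted p = 0.921). Of 12 paralogs of the members, 8 were tested and 0 had an unadjusted p under 0.05; TEAD2 had the highest mean, with 22.8 to 28.0 TPM over the 6 samples. TEAD3 and MERTK, a receptor related to AXL, were named after their values were seen. TEAD3 had 10.6 to 11.7 TPM in TC and 13.1 to 14.5 in TM. MERTK had 4.55 to 5.16 TPM in TC and 6.32 to 7.81 in TM. Neither gene had overlapping zones, which held for 22.2% of all tested genes, and limma gave adjusted p = 0.525 and 0.318. The log2 difference of TEAD3 was -0.25, beside -0.136 over all tested genes. It shrank to -0.09 when rescaled by median-of-ratios and to -0.05 with quantile normalization. Its sign turned to 0.06 with the length and GC trend removed. MERTK stood at -0.46, and at -0.30, -0.27 and -0.26 in the same 3 alternatives.

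**Figure D5:**
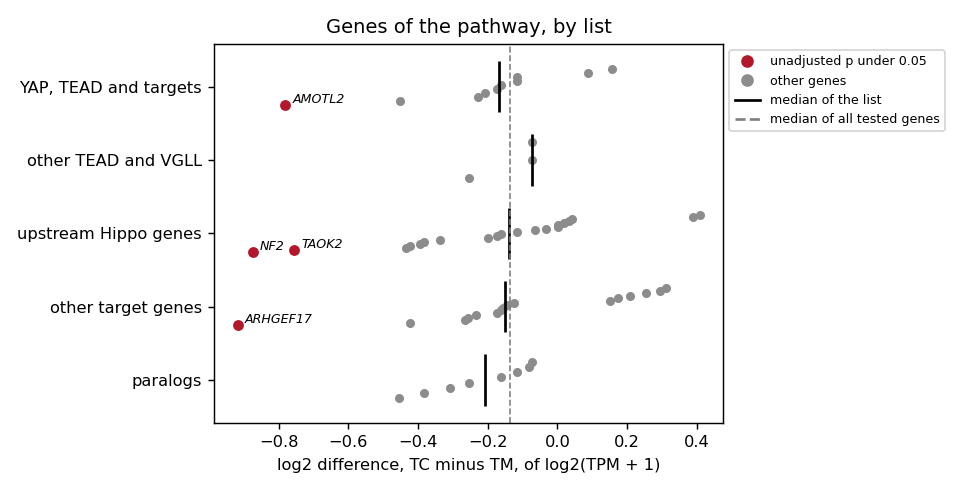
Log2 difference, TC minus TM, for every tested gene of the members and of the 4 other lists (points), with the median of each list (black bar) and of all tested genes (dashed line, -0.136). Red points have an unadjusted limma p under 0.05, namely AMOTL2, NF2, TAOK2 and ARHGEF17, and all lie between -0.92 and -0.76.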

How the data were processed

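RNA-seq of 3 TC and 3 TM samples was analysed, with groups and replicate numbers taken from the sample titles. The study took 3 mice per group; whether a TC and a TM sample came from one mouse was not given. The authors trimmed reads with SeqPrep and Sickle, aligned them with HISAT2 (hg38 in the submitters' processing notes), assembled with StringTie and quantified genes with RSEM from TruSeq libraries, and the deposited values are TPM per gene. The annotation release was not given in the sources used here. TPM keeps no depth, so no count model was run and the precision rests on the spread over samples. The other columns of values numbered 0.

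Genes that reached 1 TPM in 3 or more samples (13861 of 60671 annotated genes) were tested by limma 3.58.1 in R 4.3.3 on log2(TPM + 1), two-sided, with empirical Bayes moderation and a mean-variance trend, no covariate, and Benjamini-Hochberg adjustment over all tested genes; fold changes on this scale understate those of low genes. Intervals are 95% intervals of that fit. Ratios and correlations were compared by exact permutation (scipy 1.17.1); with 3 against 3 the smallest p is 0.1. The fit was tested on simulated data. The 17 alternatives covered the pseudocount, the filters, the scaling, the moderation, a replicate block and samples left out; the removal of the length and GC trend, the fit with TM replicate 3 as the sole TM sample and the member correlations were added after seeing the data.

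The named genes were the 10 members, the genes of each list with an unadjusted p under 0.05 and the most abundant gene of each list, and the 3 genes most like CCN1 and CCN2. The members and lists were chosen with earlier results of these data known. Gene positions, longest transcripts and GC content are from GENCODE v29 (GRCh38), and promoter windows from RefSeq. Exons of other genes overlap those of YAP1, WWTR1, CCN2, AXL (opposite strand) and AMOTL2 (same strand, RPL39P5, at most 11.9 TPM), and counting by strand was not stated plainly, so such reads cannot be told apart.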

Additional observations from a re-analysis of the deposited data

How the results depend on the processing

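No member was called in any of the 17 alternatives. Over all genes the number called was 19, and it was 12 without a trend in the moderation, 5 with the length and GC trend removed, 6 after median-of-ratios rescaling, 1 with no filter, 7 with a pseudocount of 0.1, 4 after quantile normalization, 47 with robust moderation, 195 with TM replicate 3 as the sole TM sample and 1 to 17 with a single sample left out. Members with an unadjusted limma p under 0.05 numbered 1, beside 16.2% of all genes. They numbered 0 under median-of-ratios, no filter, quantile normalization and the length and GC trend removed, beside 11% to 13.4% of all genes. With a sample left out they numbered 0 to 2, beside 11.4% to 19.2%. Members that did not overlap were 0, 1 with the sole TM sample (TEAD1, where 61% of all genes did not overlap) and 0 to 4 with a sample left out; the 4, without TM replicate 3, were AMOTL2, AXL, LATS2 and TEAD4, where 37.1% of all genes did not overlap, and without TC replicate 3 they were AMOTL2 and TEAD4 (29.8%). The other pathway genes with an unadjusted limma p under 0.05 numbered 3 of 41, beside 16.2% of all genes. They numbered 5 with median-of-ratios (13.4% of all genes) or no filter (11%), and 3 to 8 with a sample left out (11.4% to 19.2%). The 8 were found without TM replicate 3, where the share of all genes was 19.2%. The median of the members was -0.17, and 0.047 with the length and GC trend removed and 0.056 with the sole TM sample.

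No member whose sign turned had passed the threshold. Under median-of-ratios the log2 difference was 0.064 for CCN2, 0.007 for TEAD1 and 0.059 for YAP1; under quantile normalization it was 0.016 for LATS2, 0.037 for TEAD1 and 0.050 for YAP1. With the length and GC trend removed it was 0.12 for AXL, 0.059 for CCN2, 0.17 for LATS2 and 0.034 for YAP1. With the sole TM sample, which is assumed to vary like the TC samples, it was -0.071 for ANKRD1, 0.003 for AXL, 0.21 for CCN1, 0.088 for CCN2, 0.12 for LATS2, 0.69 for TEAD1, 0.005 for TEAD4 and 0.024 for YAP1. With a sample left out the ranges were -0.34 to 0.16 for YAP1, -0.11 to 0.32 for WWTR1, -0.59 to 0.20 for TEAD1, -0.68 to -0.30 for TEAD4, -0.60 to 0.14 for CCN1, -0.32 to 0.19 for CCN2, -0.001 to 0.27 for ANKRD1, -0.34 to -0.11 for AXL, -1.10 to -0.53 for AMOTL2 and -0.32 to -0.06 for LATS2. The cause was not tested.

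Same-numbered TC and TM samples deviated with r of 0.211, -0.121 and -0.165, which shows no sign of pairing and does not settle it, and the samples were treated as unpaired; with a replicate block 1 gene was called and 0 members had an unadjusted p under 0.05. The lack of depth in TPM limits what can be said of genes near 1 TPM.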
